A study of Mus musculus with 20 samples.

Results

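Potassium channel genes were taken as the protein-coding genes whose symbol starts with Kcn, except Kcne2. The rule found 93 genes among the 57180 Ensembl identifiers of the count table. They were 17 pore subunits of voltage-gated (Kv) channels (Kcna, Kcnb, Kcnc, Kcnd), 10 silent Kv subunits (Kcnf, Kcng, Kcns, Kcnv), 5 Kcnq and 8 Kcnh genes. The others were 15 inward rectifiers (Kcnj), 14 tandem-pore leak channels (Kcnk), 8 calcium- and sodium-activated channels with their relative Kcnu1 (Kcnm, Kcnn, Kcnt, Kcnu), and 16 auxiliary genes (Kcnab, Kcne, Kcnip, Kcnmb, Kcnrg).

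Punches dissected from fresh mouse brain were sequenced as poly(A) RNA, in the paraventricular thalamic nucleus (PVT) and the posterior insular cortex (pIC). Mice had received vehicle (control) or streptozotocin (STZ) in 1 intraperitoneal dose of 200 mg/kg, which kills pancreatic beta cells and causes diabetes, and tissue was taken at week 7 of this model of painful diabetic neuropathy. Each region had 4 control and 6 STZ libraries, 20 in all. The sources used here do not give strain, age or sex, nor do they state whether PVT and pIC libraries of the same number came from 1 mouse or each library from another animal. The p-values therefore measure the spread between these libraries.

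Potassium channels let potassium leave the cell and so set the resting potential and end the action potential. Kv pore subunits of the Kcna to Kcnd families repolarise spikes, Kcnq channels carry the M current that restrains repetitive firing, and calcium-activated channels of the Kcnn family carry the afterhyperpolarisation. Inward rectifiers and tandem-pore channels hold the membrane near rest, and in thalamic relay neurons such resting currents help decide whether a cell fires single spikes or bursts.

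Total counts ranged from 17939029 to 25533369 for each library. Marker scores (the mean log2 CPM of a marker list) were computed from CPM, the counts scaled to a common library size with the trimmed mean of M values, to describe the punches. The thalamus neuron score ran from 3.73 to 6.45 in PVT libraries and from 2.64 to 3.17 in pIC libraries, without overlap. The cortical excitatory score ran from 3.93 to 5.79 in PVT and from 6.27 to 6.71 in pIC, also without overlap. PVT libraries also held choroid plexus genes (score 4.05 to 6.01, against −0.53 to 1.3 in pIC) and ependymal genes (2.28 to 3.41, against −1.49 to 0.09), which belong to the lining of the adjoining ventricle. The striatal projection neuron score ranged widely in both regions, from 3.87 to 7.25 in PVT and from 3.48 to 7.08 in pIC. In bulk punches, fewer cells of a type and less RNA per cell cannot be told apart.

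Most potassium channel genes were detected in both regions. A mean of at least 1 CPM was reached by 77 of 93 genes in PVT control, 76 in PVT STZ, 72 in pIC control and 74 in pIC STZ libraries. All 8 Kcnh genes reached it in at least 1 group, as did 15 of 17 Kv pore subunits, 13 of 15 inward rectifiers, 12 of 16 auxiliary genes, 10 of 14 tandem-pore genes, 8 of 10 silent subunits, 7 of 8 calcium- and sodium-activated genes and 4 of 5 Kcnq genes. No gene was without a count in every library. A mean of at least 100 CPM was reached by 9 genes in PVT control and by 24 in pIC control libraries.

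Levels of different genes were compared per kilobase of exon (CPM per kb). Kcnab2, a cytoplasmic beta subunit of Kcna channels, had the highest level in both regions, with 54.9 ± 15.8 CPM per kb in PVT control and 101 ± 3.99 in pIC control libraries (mean ± SD, n = 4 each). In PVT it was followed by Kcnj10, the inward rectifier of astrocytes that clears extracellular potassium, with 51.5 ± 10.6 CPM per kb. Kcnk1, a weak inward rectifier of the tandem-pore family, came next in PVT with 39.1 ± 4.86, and the Kcnd auxiliary subunit Kcnip2 had 27.1 ± 7.24. The SDs of Kcnab2 and Kcnj10 overlap in PVT, so their order is not settled. In pIC control libraries the genes below Kcnab2 were Kcnj4, a strong inward rectifier, with 56.0 ± 2.84 CPM per kb, and Kcnk1 with 54.7 ± 4.07, which lay within each other's spread. The silent subunit Kcnf1 had 42.9 ± 2.91 and Kcnj9, a subunit of channels opened by G proteins, 42.5 ± 2.30 CPM per kb in the same libraries, and these also lay within each other's spread.

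Family totals of control libraries were lower in PVT than in pIC in the 5 families given here. The summed level of the Kcnh genes was 158 to 240 CPM in PVT control and 422 to 458 in pIC control libraries. For silent Kv subunits the sums were 139 to 252 against 427 to 475 CPM. Kv pore subunits summed to 749 to 1105 against 1497 to 1596 CPM. In all 3 of these families the control libraries of both regions were separate. The sums of inward rectifiers (465 to 696 against 752 to 779 CPM) and tandem-pore genes (246 to 278 against 321 to 345 CPM) were also separate, with smaller gaps. In STZ mice the inward rectifier sums of the regions overlapped, at 576 to 815 CPM in PVT and 732 to 799 CPM in pIC.

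Exons of 26 of the genes overlap a gene on the opposite strand in GENCODE M21, and those of 2, Kcnab2 and Kcnk4, a gene on the same strand. The libraries were stranded, but whether counting used strand is not given in the sources used here. Without it, reads of Kcnj13 and Gigyf2, of Kcnh7 and Gca, and of Kcnk1, Kcnd3 and Kcnn2 and their antisense neighbours cannot be told apart.

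PVT was compared with pIC in control mice to describe the regional pattern of these genes (n = 4 libraries each). Against a minimum fold of 2, 5 of 79 tested genes were higher in PVT and 1 was lower (edgeR glmTreat, Benjamini-Hochberg adjusted p under 0.05 over 16614 genes). Among all genes tested, 4.7% were higher and 0.554% lower. The higher genes were the inward rectifiers Kcnj13 and Kcnj5, the Kcnh channel Kcnh8, the beta subunit Kcnmb1 and the calcium-activated channel Kcnn4, and the lower gene was Kcnh4. In STZ mice, which share no library with the control mice, 4 of 80 were higher and 2 lower among 16489 genes, of which 3.1% were higher and 0.503% lower. The 4 higher genes, Kcnj13, Kcnj5, Kcnh8 and Kcnmb1, were among the 5 of control mice (80% of those and 100% of the STZ list). The other higher gene of control mice, Kcnn4, was not among the genes tested between regions in STZ mice. The lower genes of STZ mice, Kcnh7 and Kcns1, were other genes than in control mice.

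Kcnj13 (ENSMUSG00000079436) encodes an inward rectifier of transporting epithelia, including the choroid plexus. Its level was 26.6, 22.0, 13.6 and 18.1 CPM in PVT control libraries 1 to 4, and 0.807, 0.721, 0.540 and 0.783 CPM in pIC control libraries. All PVT libraries were far above all pIC libraries. The log2 difference was 4.79 (SE 0.242, 95% interval 4.26 to 5.33, adjusted p = 1.59e-06). In STZ mice Kcnj13 had a lowest, median and highest level of 4.24, 11.8 and 13.1 CPM in PVT and of 0.559, 1.08 and 1.36 CPM in pIC. The log2 difference was 3.22 (SE 0.302, adjusted p = 9.63e-05), again without overlap. All 16 choroid plexus markers were also higher in PVT than in pIC in control mice (median log2 difference 6.40) and 14 of 16 in STZ mice (median 5.45). Their part in the level of Kcnj13 was not tested.

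Kcnj5 (ENSMUSG00000032034) encodes a subunit of the potassium channels opened by G proteins, best known from the heart. PVT control libraries had 9.76, 3.49, 5.58 and 6.47 CPM and pIC control libraries 0.314, 0.433, 0.442 and 0.691 CPM. The lowest PVT value was thus well above the highest pIC value, and the log2 difference was 3.73 (SE 0.360, adjusted p = 0.000195). Its size rests on few pIC counts of Kcnj5, 7 to 15 in each control library, as in STZ mice with 3 to 23 in each pIC library. In STZ mice the lowest, median and highest levels of Kcnj5 were 3.05, 5.21 and 13.0 CPM in PVT and 0.128, 0.286 and 0.943 CPM in pIC, with a log2 difference of 3.88 (SE 0.507, adjusted p = 0.00107). Its PVT level was highest in STZ library 5, which had the highest thalamus, habenula and hypothalamic neuron scores of the PVT libraries (6.45, 4.87 and 4.23). The part of these cells in the level of Kcnj5 was not tested. The related subunits went the other way: without a minimum fold, Kcnj3, Kcnj6 and Kcnj9 were lower in PVT in control mice, with log2 differences of −0.90, −1.15 and −1.31 (adjusted p = 0.000898, 0.00185 and 0.00295). These 3 were named after their values were seen.

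Kcnmb1 (ENSMUSG00000020155) encodes the beta1 subunit of the large-conductance calcium-activated channel and is known from smooth muscle. It stood at 4.75, 4.14, 4.69 and 5.0 CPM in PVT control libraries and at 0.896, 1.11, 0.786 and 0.830 CPM in pIC control libraries. The groups were separate, with a log2 difference of 2.35 (SE 0.18, adjusted p = 9.61e-05). STZ mice had a log2 difference of 1.70 (SE 0.193, adjusted p = 0.0103), from 2.65, 3.14 and 3.58 CPM in PVT and 0.553, 0.995 and 1.34 CPM in pIC as lowest, median and highest. The mural cell score, from a list that includes the smooth muscle genes Acta2 and Myh11, ran from 3.33 to 3.71 in PVT and from 3.40 to 3.57 in pIC, so the regions overlapped in it. Its partner Kcnma1, the pore of that channel, was lower in PVT without a minimum fold in control mice (log2 −0.95, adjusted p = 0.00463, named after its value was seen).

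Kcnh8 (ENSMUSG00000035580) encodes a channel of the ELK type, which activates slowly at negative voltages. It was low throughout, with 2.50, 1.35, 2.23 and 3.82 CPM in PVT control libraries and 0.314, 0.385, 0.540 and 0.461 CPM in pIC control libraries, the latter from 7 to 11 counts each. All PVT values lay above all pIC values, and the log2 difference was 2.54 (SE 0.355, adjusted p = 0.00458). In STZ mice it was 2.22 (SE 0.337, adjusted p = 0.0116), without overlap (PVT 1.00 to 3.39 CPM, pIC 0.298 to 0.589 CPM), and the call was lost in limma-voom (adjusted p = 0.175). Kcnn4, the intermediate-conductance calcium-activated channel of blood and epithelial cells, had 12 to 26 counts in each PVT control library and 1 to 7 in each pIC control library. Its log2 difference of 2.81 (SE 0.553, adjusted p = 0.0301) therefore rests on few counts, and its call was lost when PVT control library 1, 3 or 4 or pIC control library 1, 3 or 4 was left out (adjusted p = 0.0603 to 0.109) and in DESeq2 (adjusted p = 0.145).

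Of the genes with lower values in PVT, Kcnh7 (ENSMUSG00000059742), an ERG-type channel of the Kcnh family, had 21.4, 48.4, 39.4 and 14.0 CPM in PVT control and 126, 116, 125 and 128 CPM in pIC control libraries. Its log2 difference was −2.01 in control mice (SE 0.366, adjusted p = 0.0769) and −1.85 in STZ mice (SE 0.175, adjusted p = 0.00146), where PVT libraries had 23.5, 31.6 and 49.2 CPM and pIC libraries 93.3, 125 and 139 CPM as lowest, median and highest. Both groups of mice thus showed separate regions, and the PVT control libraries differed more among themselves. Kcns1 (ENSMUSG00000040164), a silent subunit that modifies other Kv channels, had 5.06, 13.5, 9.83 and 4.56 CPM in PVT control and 31.5, 30.5, 30.5 and 29.4 CPM in pIC control libraries. Its log2 difference was −1.89 in control mice (SE 0.320, adjusted p = 0.0596) and −1.84 in STZ mice (SE 0.190, adjusted p = 0.00291).

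Kcnh4, another ELK-type channel, had 2.50, 6.05, 2.90 and 4.45 CPM in PVT control and 11.8, 12.9, 12.2 and 12.6 CPM in pIC control libraries. Its log2 difference was −1.63 (SE 0.228, adjusted p = 0.0421) in control mice and −1.10 (SE 0.381, adjusted p = 1) in STZ mice, where PVT library 1 had 10.7 CPM and overlapped the pIC range of 9.59 to 14.5 CPM. In control mice the call was lost without any 1 of PVT libraries 1, 3 and 4 or of the 4 pIC libraries (adjusted p = 0.0591 to 0.10), in DESeq2 (0.104), with upper-quartile scaling (0.0689) and over genes with a mean of at least 1 CPM (0.0542). Kcnv1, a silent subunit, had a log2 difference of −2.09 (adjusted p = 0.0850) in control mice, Kcnh3 −1.89 (adjusted p = 0.0815), Kcnab3 −1.45 (adjusted p = 0.151) and Kcnf1 −1.29 (adjusted p = 0.188). None of these 4 passed against a minimum fold of 2 in either set of mice.

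Among genes leaning to PVT, Kcne1l, an auxiliary subunit also known as Kcne5, had 5.49 to 8.07 CPM in PVT control and 1.88 to 2.93 CPM in pIC control libraries. Its log2 difference was 1.5 (adjusted p = 0.0501) in control and 1.27 (adjusted p = 0.526) in STZ mice. Kcna5 had log2 differences of 1.55 and 1.25 (adjusted p = 0.183 and 1) and the small-conductance calcium-activated channel Kcnn3 1.14 and 1.11 (adjusted p = 0.824 and 1). Both were highest in pIC in STZ library 3, at 23.4 CPM for Kcna5 and 37.2 CPM for Kcnn3, the pIC library with the highest striatal score of 7.08.

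**Figure D1:**
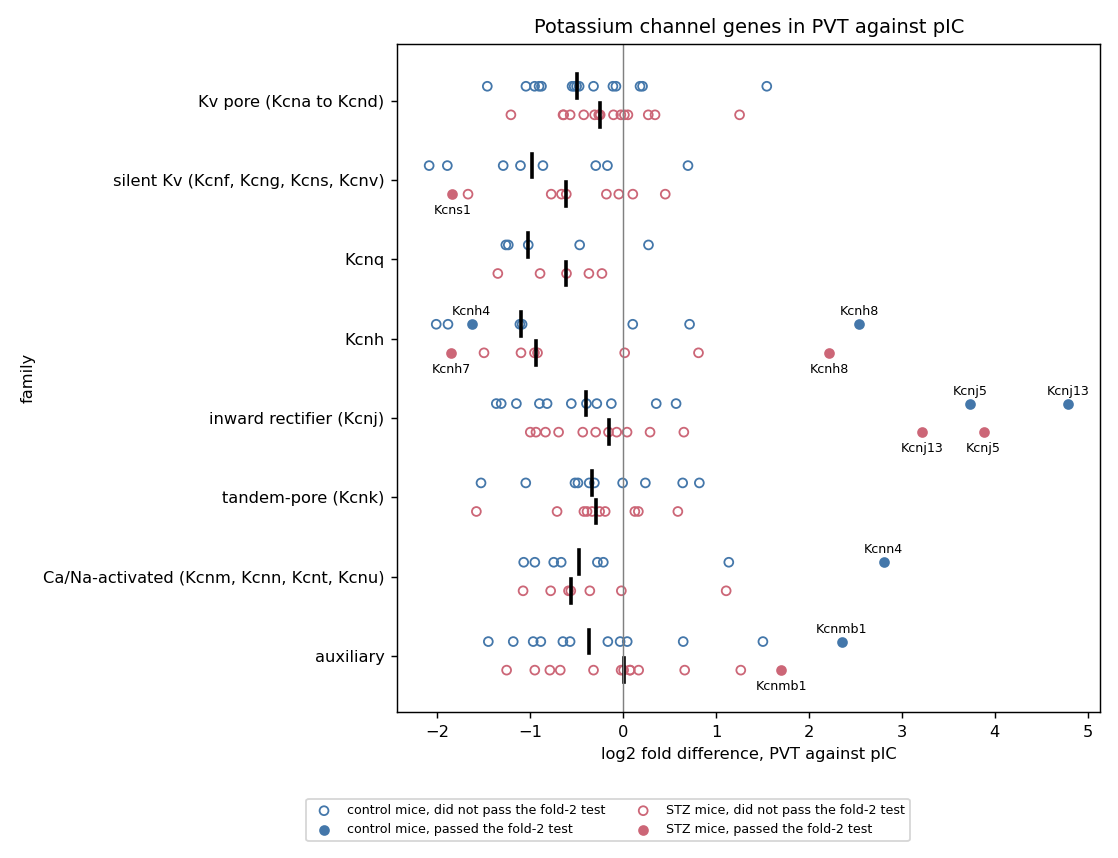
Log2 fold difference between PVT and pIC for each tested potassium channel gene, by family, in control mice (blue) and STZ mice (red). Filled points passed the test against a minimum fold of 2, and black bars mark family medians, which are below 0 in control mice in every family.

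**Figure D2:**
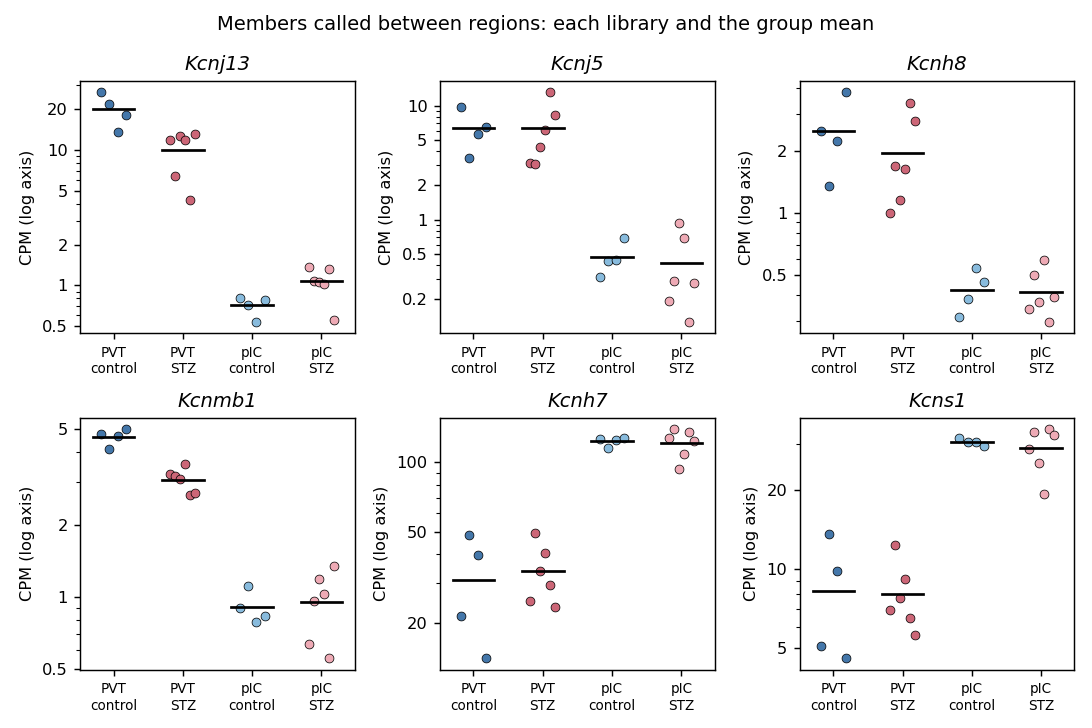
CPM on a log axis in each of the 20 libraries for the 6 genes called in STZ mice, with the group mean as a line. Kcnj13, Kcnj5, Kcnh8 and Kcnmb1 are higher in every PVT library than in any pIC library, and Kcnh7 and Kcns1 are lower.

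Without a minimum fold, the regional difference covered most of the genes. In control mice 14 of 79 were higher and 42 lower in PVT (edgeR quasi-likelihood test, adjusted p under 0.05), where 25.5% and 22.4% of all genes were. In STZ mice 11 of 80 were higher and 33 lower, with 26.0% and 23.1% of all genes. The lists shared 10 higher genes (71.4% of the control and 90.9% of the STZ list) and 32 lower genes (76.2% and 97.0%). Kcnn4, higher in control mice only, was not tested between regions in STZ mice. The median log2 difference was −0.50 in control and −0.30 in STZ mice, against 0.02 over all genes in each. In control libraries the groups did not overlap for 14 higher and 39 lower genes, against 24.2% and 21.2% of all genes, and in STZ libraries for 8 and 23, against 14.4% and 13.4%.

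By family, in control mice and without a minimum fold, 5 of 8 Kcnh genes, 4 of 5 Kcnq genes, 5 of 8 tested silent subunits, 7 of 15 Kv pore subunits, 6 of 12 auxiliary genes, 4 of 8 calcium- and sodium-activated genes and 5 of 10 tandem-pore genes were lower in PVT. Higher in PVT were 2 Kcnh genes, 3 auxiliary genes and 2 calcium- and sodium-activated genes. Silent subunits, Kv pore subunits and tandem-pore genes had 1 higher gene each, and Kcnq genes 0. Kcnq3 and Kcnq5, which contribute to the M current, had log2 differences of −1.02 and −1.24 (adjusted p = 0.00128 and 0.00242). Among inward rectifiers 6 of 13 were lower and 4 higher, the latter including the astrocyte pair Kcnj10 and Kcnj16 (0.57 and 0.36, adjusted p = 0.00526 and 0.00881). In STZ mice Kcnj10 had 0.65 (adjusted p = 0.0114) and Kcnj16 0.29 (adjusted p = 0.103). The astrocyte score was 7.04 to 7.27 in PVT and 6.75 to 6.95 in pIC libraries, without overlap. The summed level of the same markers did overlap. It was 3568 to 4694 CPM in PVT control and 4424 to 4847 CPM in pIC control libraries. In STZ libraries it was 4374 to 5121 CPM in PVT and 4295 to 5011 CPM in pIC. The part of astrocytes in the levels of Kcnj10 and Kcnj16 was not tested. These Kcnq genes, Kcnj10 and Kcnj16 were named after their values were seen.

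PVT control library 2 decided how many genes passed against a minimum fold of 2. Its cortical excitatory score was 5.76 and its thalamus score 3.85, and Kcnh3, at 65.5 CPM against 19.1 to 38.1 in the other PVT control libraries, was nearest to pIC there. Without that library 6 genes were higher and 11 lower in control mice, the latter including Kcnab3, Kcnf1, Kcnh1, Kcnh3, Kcnh4, Kcnh7, Kcnj4, Kcnq5, Kcns1 and Kcnv1. Over all genes the same fit called 907 higher and 305 lower of 16823, against 781 and 92 with the library, so lower calls rose among all genes too. Over the other libraries left out in turn the count of genes called was 4 to 6. Without the 4 PVT libraries of lowest thalamus score (control 2 and 4, STZ 1 and 2), a choice made after the data were seen, 5 were higher and 9 lower in control mice and 4 and 4 in STZ mice. Over all genes these fits called 880 higher and 236 lower of 17042 in control mice, and 610 and 159 of 16801 in STZ mice, against 511 and 83 with all libraries.

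The promoters of the 4 genes higher in PVT in both sets of mice, and of the 2 lower in STZ mice, are shown because these genes passed the test between regions. The sequences are from RefSeq on GRCm38.p6, a build other than that of the counts, and span 250 bases before to 50 after the gene start, 5′ to 3′ on the gene's strand. Capitals mark the letters of the TATA box (TATAAA), those of the GC box (GGGCGG) and those of the CCAAT box, each searched on both strands.
Kcnj13 (chr1:87394680-87394979, minus strand): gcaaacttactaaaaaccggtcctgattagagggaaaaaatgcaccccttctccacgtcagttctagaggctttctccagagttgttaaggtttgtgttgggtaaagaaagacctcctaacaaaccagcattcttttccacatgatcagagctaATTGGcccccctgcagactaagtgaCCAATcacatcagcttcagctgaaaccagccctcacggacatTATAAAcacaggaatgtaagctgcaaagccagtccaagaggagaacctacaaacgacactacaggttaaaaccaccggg
Kcnj5 (chr9:32344295-32344594, minus strand): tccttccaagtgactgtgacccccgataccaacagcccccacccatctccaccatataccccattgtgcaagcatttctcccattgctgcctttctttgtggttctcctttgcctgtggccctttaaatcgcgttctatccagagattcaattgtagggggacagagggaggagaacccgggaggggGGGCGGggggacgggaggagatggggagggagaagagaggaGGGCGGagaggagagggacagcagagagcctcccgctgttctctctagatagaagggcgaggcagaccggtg
Kcnmb1 (chr11:33962763-33963062, plus strand): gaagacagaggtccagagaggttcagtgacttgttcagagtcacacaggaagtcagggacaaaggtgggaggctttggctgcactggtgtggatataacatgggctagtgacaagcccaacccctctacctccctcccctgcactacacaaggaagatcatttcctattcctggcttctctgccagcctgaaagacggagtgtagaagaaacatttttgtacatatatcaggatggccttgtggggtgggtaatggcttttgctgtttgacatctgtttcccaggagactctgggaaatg
Kcnh8 (chr17:52602459-52602758, plus strand): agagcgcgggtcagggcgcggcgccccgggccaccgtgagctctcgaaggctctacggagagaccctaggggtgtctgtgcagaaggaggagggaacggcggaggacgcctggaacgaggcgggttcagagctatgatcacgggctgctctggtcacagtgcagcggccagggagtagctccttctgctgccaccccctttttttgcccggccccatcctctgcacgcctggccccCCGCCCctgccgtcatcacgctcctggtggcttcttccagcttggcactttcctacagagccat
Kcnh7 (chr2:63184238-63184537, minus strand): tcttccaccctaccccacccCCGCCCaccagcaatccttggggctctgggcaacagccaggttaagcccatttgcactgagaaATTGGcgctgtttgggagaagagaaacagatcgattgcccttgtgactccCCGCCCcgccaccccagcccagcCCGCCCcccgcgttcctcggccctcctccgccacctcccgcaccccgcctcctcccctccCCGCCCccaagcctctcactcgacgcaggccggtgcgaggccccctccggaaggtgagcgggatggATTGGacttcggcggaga
Kcns1 (chr2:164171064-164171363, minus strand): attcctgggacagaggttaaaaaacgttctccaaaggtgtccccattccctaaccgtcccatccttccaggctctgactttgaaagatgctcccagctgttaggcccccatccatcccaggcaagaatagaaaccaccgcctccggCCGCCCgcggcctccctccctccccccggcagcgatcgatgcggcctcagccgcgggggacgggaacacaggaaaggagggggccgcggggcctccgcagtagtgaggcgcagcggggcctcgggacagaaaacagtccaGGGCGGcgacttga

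The letters differed among them. Kcnj13 alone of the 6 held TATAAA, 1 time, with CCAAT 2 times and a GC content of 46%. Kcnmb1 held none of the motifs (49.7% GC), Kcnj5 held GGGCGG 2 times (58.3% GC), and Kcnh8 1 time (66% GC). Kcnh7 held GGGCGG 4 times and CCAAT 2 times (67.7% GC), and Kcns1 held GGGCGG 2 times (64% GC). The table had promoters for 68 of the 93 genes, 92 promoters in all. Of these 5.44% held TATAAA, 47.8% held GGGCGG and 31.5% held CCAAT, against 13.6%, 35.7% and 37.4% of all 32851 promoters of that length. Their median GC content was 58.2%, against 52.7%. A match is a description of the letters and not of binding.

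STZ was compared with control in PVT to ask which potassium channel genes differ in diabetic mice (4 and 6 libraries). Of 81 tested genes, 1 was lower in STZ mice and none was higher (edgeR quasi-likelihood test, adjusted p under 0.05), where 1.59% of 17076 genes were lower and 0.474% higher. The lower gene was Kcnmb1. With upper-quartile scaling the split over all genes was 58 higher and 416 lower, against 81 and 272, and Kcnmb1 was again the gene called. By unadjusted p under 0.05, 17 of 81 passed, where 17.8% of all genes did. The median log2 difference was 0.20 over the 81 genes, with 60 above 0, against 0.0038 over all genes tested. Neuronal marker lists had positive medians as well, with 0 markers called in each by edgeR: 0.65 for striatal, 0.50 for habenula, 0.45 for thalamus and 0.19 for cortical excitatory neurons. The median scores of control and STZ libraries were close, at 5.66 and 5.69 for striatal and 5.08 and 5.18 for cortical excitatory neurons. For thalamus neurons they were 4.69 and 4.59 and for habenula neurons 3.19 and 3.10, thus slightly lower in STZ libraries. STZ libraries 5 and 6 had the highest thalamus and habenula scores. The part of these cells in the median of the potassium channel genes was not tested.

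Kcnmb1 had 4.75, 4.14, 4.69 and 5.0 CPM in PVT control libraries and a lowest, median and highest of 2.65, 3.14 and 3.58 CPM in PVT STZ libraries. Every STZ library was below every control library. It fell by 0.59 on the log2 scale (SE 0.118, 95% interval −0.85 to −0.33, adjusted p = 0.0293). The call was lost without control library 1, 3 or 4 (adjusted p = 0.0823, 0.0694 and 0.0953) or STZ library 1, 2, 3 or 5 (0.0529, 0.0550, 0.0619 and 0.0537). Over all genes the main fit called 353 and those fits 143 to 242, so calls fell among all genes too. Over its 21 alternatives the log2 difference stayed between −0.65 and −0.50, and 11 of them passed. Of those 11, 1 is the main fit itself, listed again for a threshold of 0.1, and so had to pass. In pIC its levels overlapped, at 0.786 to 1.11 CPM in control and 0.553 to 1.34 CPM in STZ libraries.

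Kcnj13 had the most negative log2 difference of the 81 genes in PVT. Its control libraries had 26.6, 22.0, 13.6 and 18.1 CPM and its STZ libraries a lowest, median and highest of 4.24, 11.8 and 13.1 CPM, so the groups were separate. Its log2 difference was −0.99 (SE 0.308, 95% interval −1.67 to −0.30), which did not pass (adjusted p = 0.136), while it passed in DESeq2 (adjusted p = 0.0282) and with all 20 libraries in 1 fit (adjusted p = 0.0300). Its lowest level was in STZ library 5, which had the lowest choroid plexus score (4.05), and its highest in control library 1, which had the highest (6.01). Kcnn4 likewise had a log2 difference of −0.94 (adjusted p = 0.144), at 0.558 to 1.16 CPM in control and 0.244 to 0.647 CPM in STZ libraries, which overlap. This rests on few counts, 12 to 26 in each control and 6 to 16 in each STZ library. Those of STZ libraries lay on both sides of the filter's minimum count of 10.

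Beside these 3 genes, ependymal markers were lower in PVT punches of STZ mice. Of 16 ependymal markers 12 were called lower (median log2 difference −0.73), their score was 3.04 to 3.41 in control and 2.28 to 2.80 in STZ libraries without overlap, and their summed level 161 to 214 against 97.8 to 136 CPM. Of 16 choroid plexus markers 0 passed in edgeR (median −0.69), with scores of 5.07 to 6.01 against 4.05 to 5.24 and summed levels of 4273 to 8216 against 2052 to 4640 CPM. No marker of either list was at 0 in all libraries of a PVT group. Of 14 oligodendrocyte markers 3 were lower (median −0.34). In the list of mural cells, where Kcnmb1 is known to be expressed, 0 of 12 markers passed in edgeR (median 0.10). The part of these cells in the levels of Kcnmb1, Kcnj13 and Kcnn4 was not tested.

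**Figure D3:**
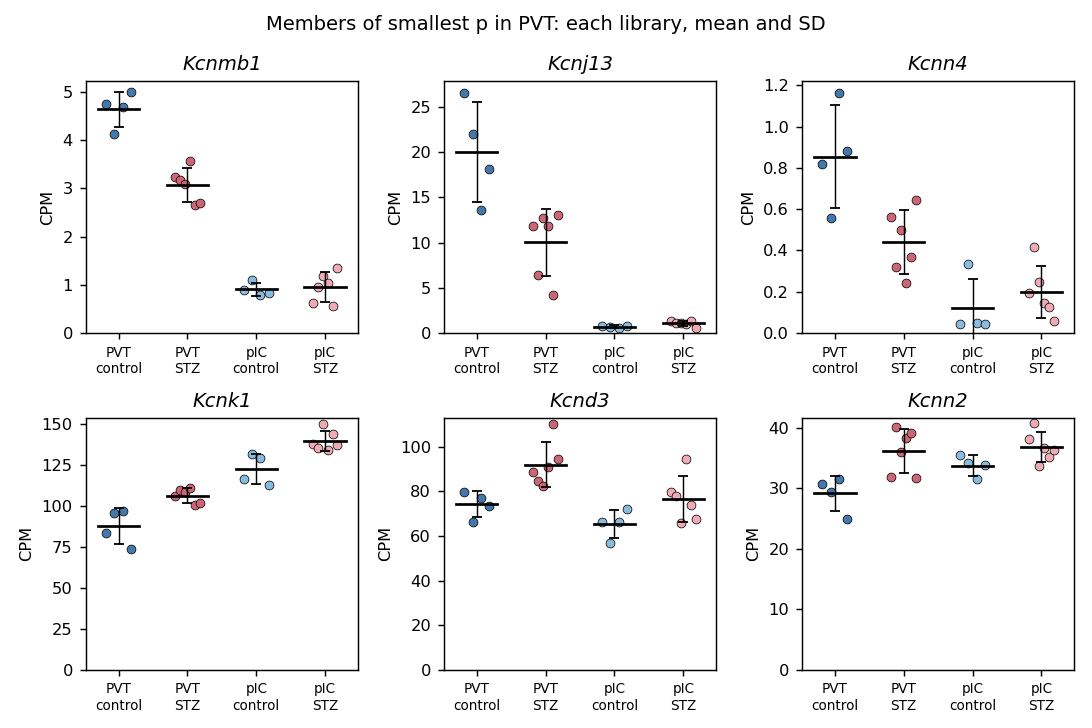
CPM in each library, with group mean and SD, for the 6 potassium channel genes of smallest p in PVT. Kcnmb1 and Kcnj13 are lower in every PVT STZ library than in any PVT control library, and Kcnk1, Kcnd3 and Kcnn2 are higher.

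3 genes had separate and higher values in PVT of STZ mice without passing. Kcnk1 had 83.6, 95.6, 96.6 and 73.7 CPM in control libraries and 100 to 111 CPM in STZ libraries (median 107), without overlap. Its log2 difference was 0.29 (SE 0.0750, 95% interval 0.12 to 0.45, adjusted p = 0.0800). Kcnd3, a pore subunit of the A-type current, had 79.7, 66.4, 77.1 and 73.5 CPM against a lowest, median and highest of 82.6, 89.9 and 110 CPM. All STZ values lay above all control values, with a log2 difference of 0.32 (SE 0.0886, adjusted p = 0.0976). Kcnn2, a small-conductance calcium-activated channel, had 30.8, 29.3, 31.6 and 25.0 CPM against 31.7, 37.1 and 40.1 CPM, with a log2 difference of 0.32 (SE 0.0910, adjusted p = 0.105). Groups without overlap were found for these 3 genes in the higher direction and for Kcnmb1 and Kcnj13 in the lower, where 1.85% and 4.29% of all genes had them.

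DESeq2 called Kcnk1, Kcnd3 and Kcnn2 higher (adjusted p = 0.0123, 0.0273 and 0.0329) along with Kcnj13 and Kcnmb1 lower. With the thalamus score as a covariate Kcnk1 and Kcnd3 passed (adjusted p = 0.0396 and 0.0143), as did Kcnj4, and Kcnmb1 was lower. Over all 17076 genes DESeq2 called 353 higher and 551 lower, and the covariate fit 449 and 651. The main fit called 81 and 272, so calls rose among all genes too. Without the 4 PVT libraries of lowest thalamus score no potassium channel gene passed, and Kcnk1, Kcnd3 and Kcnn2 had log2 differences of 0.23, 0.28 and 0.23 (adjusted p = 0.504, 0.555 and 0.585). Over all 17302 genes that fit called 4 higher and 31 lower.

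Other genes had wider intervals. The tandem-pore gene Kcnk6 had a log2 difference of 0.46 (interval 0.13 to 0.79, adjusted p = 0.147), Kcnd2, the main A-type pore subunit of dendrites, 0.30 (0.08 to 0.52, adjusted p = 0.157) and Kcnq3 0.45 (0.08 to 0.82, adjusted p = 0.201). For Kcnf1 it was 0.42 (0.01 to 0.82, adjusted p = 0.267) and for Kcnh8 −0.36 (−1.19 to 0.48, adjusted p = 0.673). Kcnd2 passed without STZ library 2 (log2 0.36, adjusted p = 0.0415), where its level of 77.9 CPM was the lowest of the STZ libraries, and Kcna1 passed without control library 2. By family the medians were 0.32 for 15 Kv pore subunits (14 above 0), 0.25 for Kcnq, 0.21 for silent subunits, 0.20 for inward rectifiers, 0.22 for auxiliary genes, 0.14 for calcium- and sodium-activated genes, 0.11 for Kcnh and 0.07 for tandem-pore genes.

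PVT control library 4 was the lowest of the 10 PVT libraries for 26 of 61 potassium channel genes with a mean of at least 5 CPM, and it had the lowest cortical excitatory score, 3.93. How often it was lowest over all genes of that level was not counted. The median log2 difference between STZ and control over the 81 genes was 0.10 without it, and 0.30 without control library 2. Over all genes the medians were 0.0099 and 0.0024 in those fits.

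In pIC no potassium channel gene passed between STZ and control mice. Of 77 tested genes 0 passed in edgeR, 0 in DESeq2 and 1 in limma-voom, while 1.4% of 16189 genes did in edgeR. By unadjusted p under 0.05, 4 of 77 passed, where 11.8% of all genes did. The median log2 difference was −0.0072 (38 above 0, 39 below), against −0.000626 over all genes. Kcnk1 had 116, 131, 129 and 113 CPM in control libraries and 134 to 150 CPM in STZ libraries (median 137). It was the 1 gene without overlap in the higher direction (2.12% of all genes), none being so in the lower direction (2.31%), with a log2 difference of 0.18 (SE 0.0561, 95% interval 0.06 to 0.30, adjusted p = 0.158), and was the gene that limma-voom called (adjusted p = 0.0413).

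The other genes of smallest p in pIC overlapped between groups. Kcna6, a pore subunit of Kcna channels, had 122, 115, 117 and 121 CPM in control libraries and 87.7, 109 and 115 CPM as lowest, median and highest in STZ libraries, with a log2 difference of −0.16 (adjusted p = 0.357). Kcnd3 had 0.22 (adjusted p = 0.393), from 66.3, 56.8, 66.5 and 72.0 CPM against 65.7 to 94.4 CPM. Kcnj13 had 0.58 (interval 0.03 to 1.14, adjusted p = 0.393), at 0.540 to 0.807 CPM against 0.559 to 1.36 CPM. The log2 differences of Kcnj4, Kcnk5 and Kcnj2 were 0.17, 0.61 and 0.34 (adjusted p = 0.447 to 0.475). For the families not yet named, Kcnn2 had 0.12 (adjusted p = 0.498), Kcnv1 −0.11 (0.607), Kcnip3 0.09 (0.656) and Kcnh1 0.06 (0.755).

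**Figure D4:**
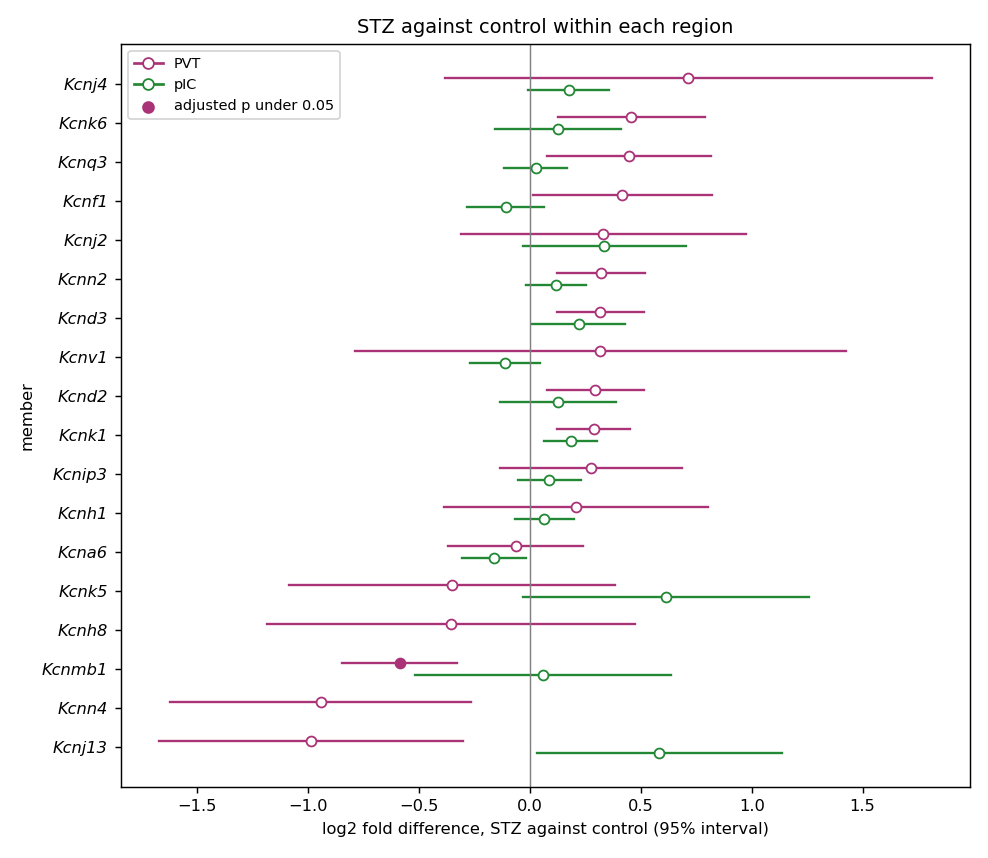
Log2 fold difference between STZ and control with its 95% interval for the named potassium channel genes, in PVT (purple) and pIC (green). The filled point, Kcnmb1 in PVT, is the 1 with an adjusted p under 0.05; Kcnh8 and Kcnn4 were not tested in pIC.

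Whether STZ acted differently in PVT and pIC was tested as an interaction over all 20 libraries, and no potassium channel gene passed. In edgeR 0 of 81 and 0 of 17427 genes passed (0.0% of all genes), in DESeq2 and limma-voom also 0 of 81. By unadjusted p under 0.05, 7 of 81 passed, where 4.02% of all genes did. Kcnj13 had the smallest p, with a log2 difference of −1.59 between the effects (95% interval −2.56 to −0.61, adjusted p = 0.909 in edgeR), from log2 differences of −0.99 in PVT and 0.58 in pIC. Kcnj11, the pore of the ATP-sensitive channel, had 0.38, Kcnmb1 −0.66, Kcnf1 0.51, Kcnn4 −1.72, Kcnq3 0.40, Kcnk5 −0.98 and Kcne4 0.81, all with an adjusted p of 1. An effect of Kcnmb1 particular to PVT was therefore not shown.

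Genes known to bind, anchor or regulate these channels were given from a list of 33, of which 32 were tested in each comparison. In edgeR 0 of 32 passed in each comparison, and by unadjusted p under 0.05 there were 7 in PVT, 5 in pIC and 3 in the interaction, where 17.8%, 11.8% and 4.02% of all genes passed. Between regions, against the minimum fold, 1 passed by unadjusted p in control mice and 0 in STZ mice, where 9.88% and 6.57% of all genes did. Results of DESeq2 and limma-voom for these genes were not read and are not given here. In PVT the median log2 difference of STZ against control was 0.20, and those of smallest p were Snx27, a sorting protein of channels opened by G proteins (0.21, adjusted p = 0.0991), the axonal spectrin Sptbn4 (0.29, adjusted p = 0.112), Abcc9, a sulfonylurea receptor (0.31, adjusted p = 0.120), and Rgs7, a regulator of G protein signalling (0.27, adjusted p = 0.136). In pIC the median was 0.02, with Abcc9 at 0.30 (adjusted p = 0.145), the ubiquitin ligase Nedd4l at 0.19 (0.227), the scaffold Dlg1 at 0.15 (0.380) and Rgs4 at −0.18 (0.386). Abcc9 had 6.87 to 8.48 CPM in control and 8.14 to 10.4 CPM in STZ libraries of PVT, and 7.51 to 8.25 against 8.26 to 10.6 CPM in pIC. For the interaction Rgs4, Rgs7, Rgs7bp and Sptbn4 had 0.60, 0.29, 0.39 and 0.23 (adjusted p = 1 each). Between regions in control mice the median was −0.51, and Rgs4, Rgs7bp, Rgs6 and Lrrc26 had −1.60, −1.19, −1.14 and −0.86 (adjusted p = 0.0999, 0.609, 1 and 1). In STZ mice Rgs4, Rgs6, Lrrc55 and Lrrc26 had −0.99, −0.89, 0.80 and −0.62 (adjusted p = 1 each).

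Potassium channel genes varied more between libraries of 1 region than most genes did. Over the 10 PVT libraries the highest level was at the median 2.15 times the lowest for 61 genes with a mean of at least 5 CPM, against 1.39 for 12002 genes of that level. In pIC the medians were 1.52 (63 genes) and 1.32 (11620 genes). The widest in PVT were Kcnj4 (19.4 to 138 CPM), Kcna5 (7.24 to 47.6 CPM), the silent subunit Kcng4 (3.33 to 21.9 CPM) and Kcnj13 (4.24 to 26.6 CPM). In pIC they were Kcna5 (3.36 to 23.4 CPM), Kcnn3 (8.77 to 37.2 CPM), Kcng2 (2.79 to 8.51 CPM) and Kcnab1 (92.4 to 273 CPM). These are descriptions, and the genes were taken in order of that ratio.

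Some of the variable genes formed opposite patterns across the PVT libraries. Those named here were picked to show these patterns and were not taken in order of the ratio. Kcnh3, Kcnv1 and Kcnk4, with wide ratios of 5.40, 4.59 and 4.52, were instead highest in STZ library 2. Kcnj4, Kcna5 and Kcnab1 were highest in STZ libraries 1 and 3, at 138 and 109 CPM for Kcnj4, 47.6 and 31.7 CPM for Kcna5 and 253 and 194 CPM for Kcnab1. Those libraries had the highest striatal scores, 7.25 and 6.89, with thalamus scores of 3.73 and 4.17. Kcnc2, a fast delayed rectifier of the Kcnc family, was highest in STZ libraries 5 and 6, at 173 and 137 CPM, as was Kcnj10 (430 and 409 CPM). Kcng4 was highest in STZ library 5 (21.9 CPM) and had 16.0 CPM both in STZ library 6 and in control library 3. STZ libraries 5 and 6 had the highest thalamus scores, 6.45 and 5.90. They also had the highest habenula scores (4.87 and 4.32, against 2.24 to 3.79 in the other PVT libraries) and hypothalamic scores (4.23 and 4.13, against −0.49 to 2.73). Their astrocyte scores, 7.25 and 7.27, were the highest by a small margin (7.04 to 7.24 in the others). In pIC, Kcna5 and Kcnab1 were highest in STZ library 3, at 23.4 and 273 CPM, where the striatal score was 7.08, against 3.48 to 5.72 in the other pIC libraries. The part of neighbouring tissue in these levels was not tested.

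**Figure D5:**
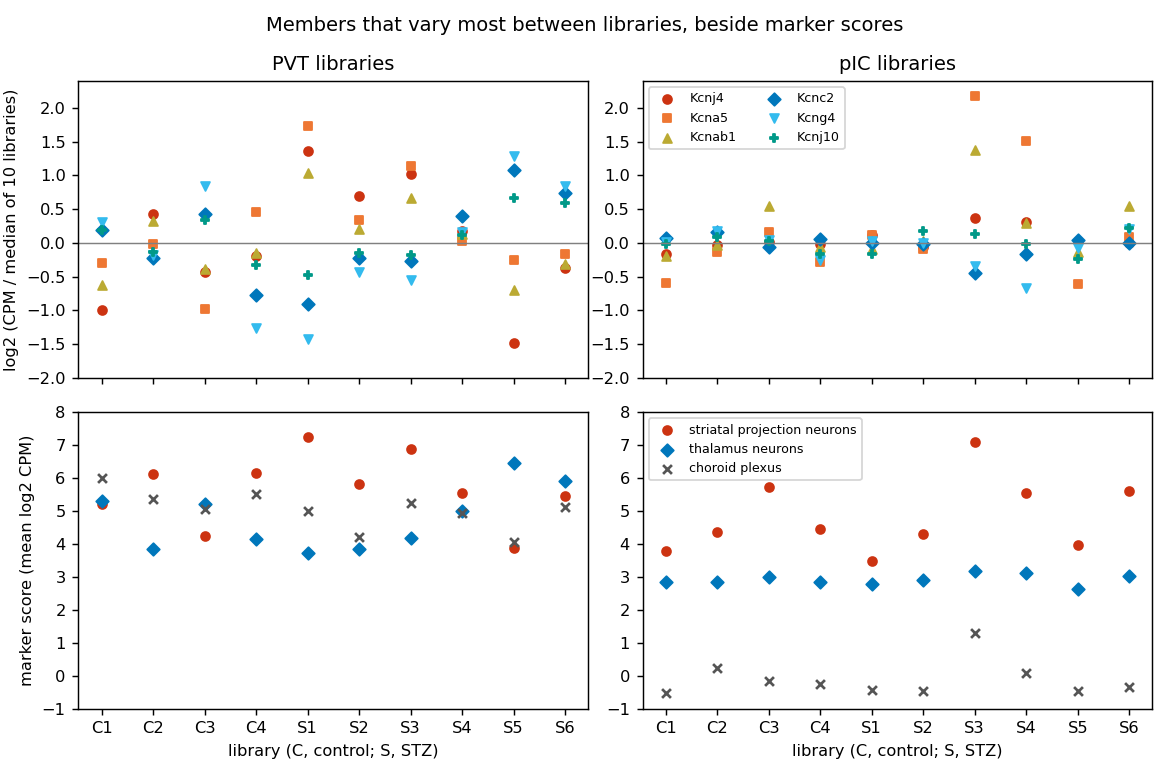
Upper panels show 6 variable potassium channel genes in each library as log2 of CPM over the median of the 10 libraries of a region. The 6 genes were picked and not taken in order of their spread. Lower panels show the striatal, thalamus and choroid plexus marker scores (mean log2 CPM). Kcnj4, Kcna5 and Kcnab1 are high in PVT libraries S1 and S3 and, for Kcna5 and Kcnab1, pIC library S3, where the striatal score is highest, and Kcnc2, Kcng4 and Kcnj10 are high in PVT libraries S5 and S6.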

How the data were processed

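Poly(A) RNA of PVT and pIC punches was sequenced in 20 libraries. The authors deposited 1 table of raw counts per Ensembl gene, aligned to GRCm39 per the submitters' processing notes; the sources used here name no aligner, counter or strand setting. Symbols (51933 of 57180 identifiers), exon lengths and overlaps came from GENCODE M21. Counts were tested with edgeR 4.0.16 in R 4.3.3 (filterByExpr with a minimum count of 10 and total of 15, TMM scaling, robust quasi-likelihood fit), separately for each comparison, with p-values adjusted by Benjamini-Hochberg over all genes tested and a threshold of 0.05. Regions were compared with glmTreat at a minimum fold of 2. DESeq2 1.42.0 and limma 3.58.1 (voom with quality weights) were alternatives. CPM used TMM factors over all 20 libraries, and marker scores used a prior count of 2. Intervals are at 95%. No pair of libraries within a group was a duplicate (lowest chi-square per degree of freedom 4.0 over 42 pairs). Scripts were tested on simulated counts.

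Named genes were, for STZ and the interaction, those called or the 8 of smallest p, with the gene of smallest p in each family, and between regions the 8 higher and 8 lower of smallest p in control mice and those called in both sets of mice; a few genes within this rule are counted but not reported by name here. The members, lists and tests were chosen with earlier results of these data known. Replicate numbers were not taken as pairs, since the labels give both regions the same numbers without stating a shared animal. Correlations of deviations from group means were −0.09 to 0.21 across regions and −0.26 to 0.44 between control and STZ libraries. Low correlations cannot exclude a shared mouse, since marker scores of neighbouring tissue also varied between punches. The tests between regions and of the interaction may therefore leave out a pairing.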

Additional observations from a re-analysis of the deposited data

Results flagged for a closer look

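In 8 of 124 groups of libraries (31 genes), 1 library stood apart from the others of its group by Dixon's test at its 95% level, which flags about 1 in 20 groups by chance. Of these, 4 were in pIC STZ library 3, the pIC library with the highest striatal score (7.08). Its level of Kcna6 was 87.7 CPM, with the nearest other library at 107 CPM, and that of Kcnv1 97.6 CPM, with the nearest at 122 CPM. Its levels of Kcnd2 (130.3 CPM, nearest 99.5) and Kcnj2 (39.5 CPM, nearest 26.2) were the highest of the group. Kcnd2 was low in PVT STZ library 2 (77.9 CPM, nearest 101), Kcnh1 was high in PVT control library 2 (73.3 CPM, nearest 49.8), and Kcne4 was high in pIC STZ library 1 (2.58 CPM, nearest 1.83). Kcnn4 in pIC control library 2 stood at 0.337 CPM, with the nearest at 0.0491 CPM, from 7 counts and 1 count.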

How the results depend on the processing

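For STZ against control in PVT, 1 potassium channel gene was called, and the count was 5 in DESeq2, 4 with the thalamus score as a covariate, 3 with all 20 libraries in 1 fit, 3 at an adjusted p under 0.1, 0 with the replicate number as a block, and 0 without the 4 PVT libraries of lowest thalamus score, an alternative chosen after seeing the data. Leaving out 1 library at a time gave 0 to 2. In pIC the count of 0 became 1 in limma-voom and stayed 0 with each library left out or with the block. In both STZ comparisons the block fit also left out STZ libraries 5 and 6, which have no control library of that number. Its counts, over all genes too, therefore do not show the effect of the block alone. The interaction count was 0 under each alternative run, the block included. Between regions, the 6 calls of control mice became 56 with no minimum fold, 27 at a minimum fold of 1.5, 14 without the 4 libraries of lowest thalamus score, 5 with the block, where Kcnn4 was the gene not called (adjusted p = 0.112), and 4 to 17 with 1 library left out. In STZ mice the 6 calls became 44 and 16 at those folds, stayed 6 with the block and were 6 to 7 with 1 library left out. The cause of these changes was not tested. For single genes, 1203 values kept their side of the threshold, 67 passed newly, 29 no longer passed and none reversed. Over all genes, the 353 calls in PVT became 904 in DESeq2, 1100 with the covariate, 679 with all 20 libraries, 749 at an adjusted p under 0.1, 70 with the block and 35 without the 4 libraries, and the 226 in pIC became 468 in DESeq2, 367 in limma-voom, 374 with the striatal score as a covariate and 385 at an adjusted p under 0.1. With 1 library left out there were 143 to 343 calls in PVT, the count moving over 1.5 times without control 1 (156), 3 (211) or 4 (143) or STZ 1 (210), 3 (206) or 4 (151), and 128 to 272 in pIC, where it did so without control 1 (133), 2 (128) or 4 (139). Between regions, the 873 calls over all genes in control mice became 7948 with no minimum fold, 2245 at 1.5, 1116 without the 4 libraries, 785 with the block and 731 to 1212 with 1 library left out, and the 594 in STZ mice became 8089, 1507 and 769 in those fits, 473 higher and 53 lower with the block, and 529 to 715 with 1 library left out. Depth limits the low genes: pIC control libraries had 1 to 7 counts of Kcnn4, 7 to 11 of Kcnh8 and 7 to 15 of Kcnj5 each.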
